A study of Mus musculus with 19 samples.

Results

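The genes described here are 6 that encode proteins of programmed cell death: Ripk1 (gene ID 19766), Ripk3 (56532), Mlkl (74568), Gsdmd (69146), Casp4 (12363) and Casp8 (12370). They were chosen by name and found by gene ID in the table of 19287 entries, and all 6 had a row. Kidney RNA had been sequenced in 19 libraries from male C57BL/6 mice, in 4 groups. The sham group (5 libraries) is the operated control, and the IR group (5 libraries) had ischemia-reperfusion, in which blood flow to the kidney is stopped and then restored. The IRLac (5 libraries) and IRLacz (4 libraries) groups had the same injury after 4 weeks of oral gavage with a Lactobacillus strain. IRLacz was read as L. casei Zhang from its abbreviation and IRLac as L. acidophilus by elimination. No gavage is stated for the sham and IR groups. Killing is stated as day 5 after the injury, and no day is stated for sham. The kidneys are whole tissue, and the sources do not say outright that each library is a separate mouse, so p-values measure the spread between libraries.

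In apoptosis, receptor-bound caspase-8 (Casp8) starts a cascade of proteases, and it also cleaves RIPK1 and RIPK3. When caspase-8 is blocked, these kinases join into a complex in which RIPK3 phosphorylates MLKL, which then breaks the plasma membrane, a death called necroptosis. In pyroptosis, inflammatory caspases such as the product of mouse Casp4, known as caspase-11 and a sensor of bacterial lipopolysaccharide in the cytosol, cut gasdermin D (Gsdmd) to free a pore-forming fragment. Tubular cells of the kidney are known to die by these routes after loss of blood flow. RNA levels do not measure the activation of these proteins, such as the cleavage of gasdermin D or the phosphorylation of MLKL.

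Promoters are shown for the 3 genes that start from the lowest sham level, Casp4, Mlkl and Ripk3, and for Ripk1, whose second annotated start holds motif matches. Each run is from RefSeq (GRCm38.p6), 5′ to 3′, from 250 bases before the annotated start to 50 bases after it, and capitals mark motif matches.
Casp4, chr9:5308599-5308898, plus strand: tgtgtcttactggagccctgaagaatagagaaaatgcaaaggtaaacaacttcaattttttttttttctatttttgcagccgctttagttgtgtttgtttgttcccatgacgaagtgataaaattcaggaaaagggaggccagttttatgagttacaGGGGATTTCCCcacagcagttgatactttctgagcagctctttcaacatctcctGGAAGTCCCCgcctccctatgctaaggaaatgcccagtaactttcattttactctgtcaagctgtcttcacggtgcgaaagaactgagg
Mlkl, chr8:111338156-111338455, minus strand: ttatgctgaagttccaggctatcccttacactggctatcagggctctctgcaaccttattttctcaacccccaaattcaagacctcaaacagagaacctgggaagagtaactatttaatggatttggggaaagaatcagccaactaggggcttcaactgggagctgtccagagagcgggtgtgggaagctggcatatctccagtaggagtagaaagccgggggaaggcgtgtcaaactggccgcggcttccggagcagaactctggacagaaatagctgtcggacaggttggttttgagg
Ripk3, chr14:55788808-55789107, minus strand: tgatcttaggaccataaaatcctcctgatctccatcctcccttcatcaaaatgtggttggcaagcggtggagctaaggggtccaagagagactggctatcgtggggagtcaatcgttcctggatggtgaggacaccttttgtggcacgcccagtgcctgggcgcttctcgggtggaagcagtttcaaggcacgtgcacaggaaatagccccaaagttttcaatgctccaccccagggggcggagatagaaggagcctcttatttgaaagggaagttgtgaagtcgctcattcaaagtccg
Ripk1, chr13:34002624-34002923, plus strand: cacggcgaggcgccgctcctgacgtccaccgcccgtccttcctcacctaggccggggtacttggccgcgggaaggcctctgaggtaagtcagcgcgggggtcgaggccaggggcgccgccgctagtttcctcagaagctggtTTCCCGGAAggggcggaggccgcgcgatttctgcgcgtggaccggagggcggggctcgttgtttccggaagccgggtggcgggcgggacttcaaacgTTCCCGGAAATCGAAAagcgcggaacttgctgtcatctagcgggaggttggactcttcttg

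Both strands of the promoters were searched for 3 motifs: the interferon-stimulated response element (TTTC, any 2 bases, TTTC), the gamma-activated site TTCNNNGAA bound by STAT factors, and the NF-kappaB consensus. The NF-kappaB motif was added after the sequences had been seen. Among 32851 promoters of this length, 3.44% held the interferon-stimulated element, 8.30% the gamma-activated site and 8.46% the NF-kappaB motif. The Casp4 window held the NF-kappaB motif in the overlapping runs GGGGATTTCC and GGGATTTCCC and again, on the minus strand, in GGAAGTCCCC. The second Ripk1 window held the gamma-activated site as TTCCCGGAA in 2 places, and the downstream copy overlapped the interferon-stimulated element GAAATCGAAA on the minus strand. A second Casp4 window, which overlaps the printed one, held the same runs. The printed Mlkl and Ripk3 windows, the Casp8 window and the first Ripk1 window held none of the 3 motifs. No window was available for Gsdmd, so that gene was not searched. A match is a run of letters and not a measured binding site.

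Levels are in FPKM, fragment counts scaled by gene length and library total, so genes can be set side by side. In sham kidneys Casp8 was highest at 14.0 ± 1.09 FPKM (SD, n = 5), followed by Ripk1 at 11.3 ± 0.905, Gsdmd at 2.41 ± 0.378, Casp4 at 0.766 ± 0.375, Mlkl at 0.624 ± 0.174 and Ripk3 at 0.474 ± 0.147 FPKM. Casp8 was above Ripk1 in 19 of 19 libraries and Gsdmd above Casp4 in 19 of 19. The ranges of Casp4, Mlkl and Ripk3 overlapped in each of the 4 groups. Within libraries, Casp4 was above Mlkl in 5 of 5 IRLac and 4 of 4 IRLacz kidneys, and in 3 of 5 IR and 2 of 5 sham kidneys. In IRLac the mean of Ripk3 (4.14 ± 1.46 FPKM, n = 5) was above that of Mlkl (3.62 ± 1.21), while in IR and IRLacz Mlkl was the higher of the pair. No library listed any of the genes at 0.

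**Figure D1:**
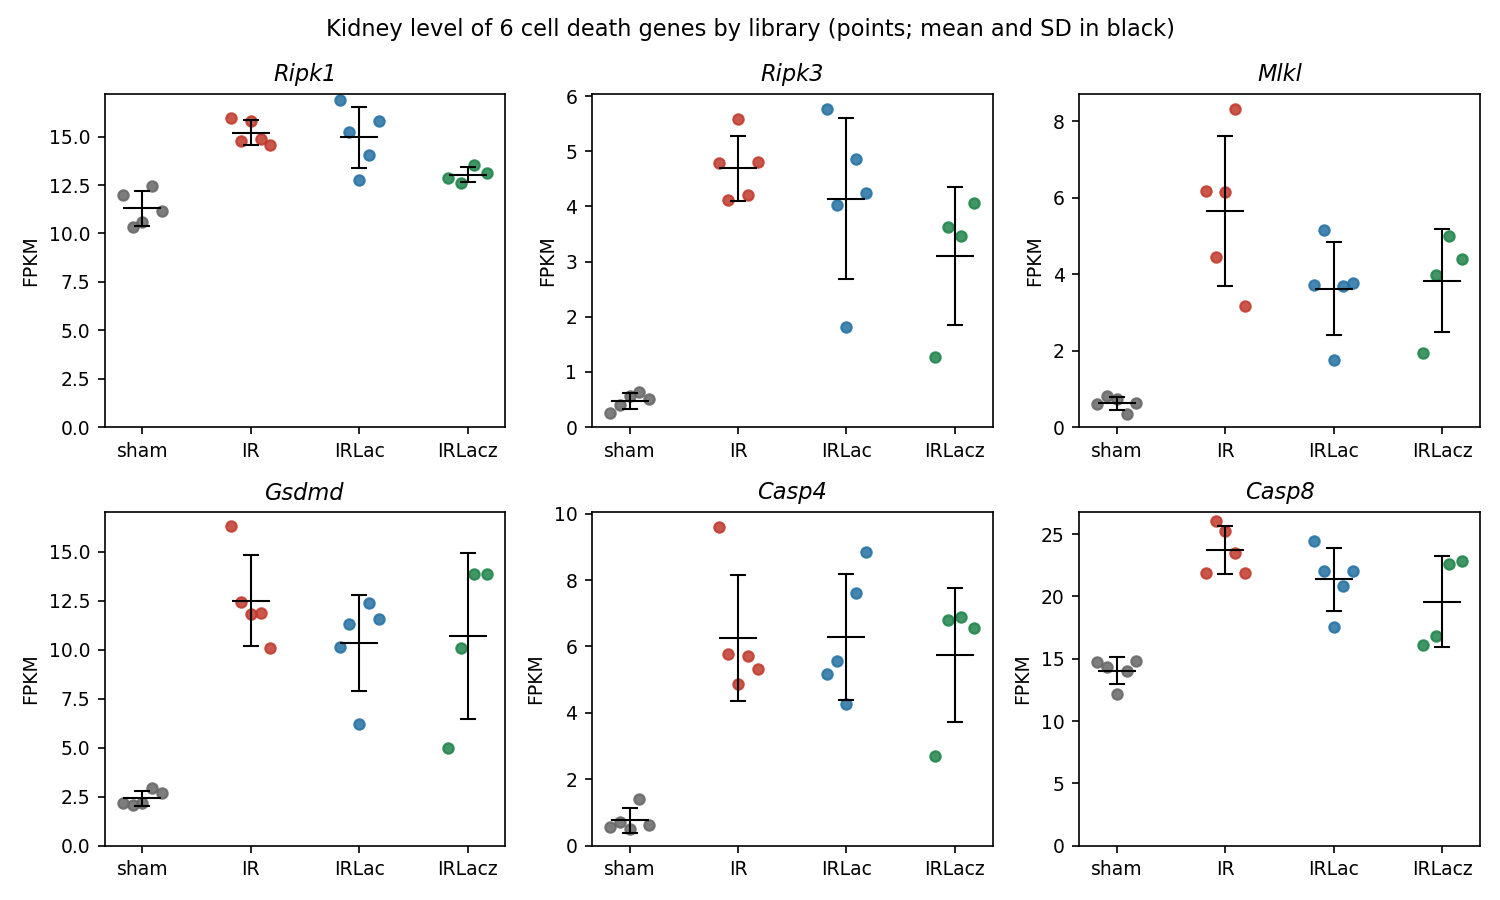
Level of each gene in FPKM (vertical axis, starting at 0) by group, with a point for each library and the group mean and SD in black. For every gene the 5 sham libraries lie below all 14 libraries of injured kidneys, and the spread is widest in IRLac and IRLacz for Ripk3 and Gsdmd.

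The comparison of IR with sham asks what the injury changed. All 6 genes were higher in IR, with means 1.34 (Ripk1) to 9.90 (Ripk3) times those of sham, by limma on log2(FPKM + 1) at an adjusted p under 0.05. The injury moved much of the transcriptome: 75.6% of the 13594 tested entries were called, 57.0% of them upward and 18.6% downward, each as a share of tested entries. The median of all tested entries was itself 0.29 higher in IR on the log2 scale. With that background, the count of genes called says little, and the sizes below are the description. Ripk3 and Mlkl were below 1 FPKM in all sham libraries, and Casp4 reached it in 1 of 5. These 3 genes therefore passed the filter on low values (1 FPKM in at least 4 libraries) through the injured groups.

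Casp8, the initiator caspase that starts apoptosis and holds back necroptosis, was at 14.77, 14.34, 12.18, 14.03 and 14.84 FPKM in the sham libraries. In IR it was at 21.89, 26.08, 25.24, 23.47 and 21.88 FPKM. The lowest IR library lies well above the highest sham library. The log2 difference was 0.72 (SE 0.10, 95% interval 0.51 to 0.93, limma adjusted p = 4.15e-06), larger than that of 77.3% of tested entries.

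Ripk1, the kinase and scaffold of the TNF receptor complex, was at 12.01, 10.35, 10.57, 12.45 and 11.17 FPKM in sham. The IR libraries were at 15.98, 14.76, 15.82, 14.90 and 14.59 FPKM, with no overlap. Its log2 difference of 0.40 (SE 0.067, 95% interval 0.26 to 0.54, limma adjusted p = 3.16e-05) was close to the median of all entries. After median-ratio scaling, which sets the typical entry to no change, it was 0.08 (limma adjusted p = 0.287), and after quantile normalization 0.06 (adjusted p = 0.406), so the call ended. In RefSeq the Ripk1 gene overlaps Serpinb6a, a serpin gene that went from 15.2 ± 1.44 to 59.8 ± 3.56 FPKM (limma adjusted p = 3.06e-08). How reads shared by the pair were counted is not given in the sources used here.

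Ripk3, the kinase that phosphorylates MLKL, was among the least abundant tested entries in sham, where 4.92% of them were lower. The sham libraries were at 0.26, 0.40, 0.57, 0.63 and 0.51 FPKM. The IR libraries were at 4.78, 4.11, 5.58, 4.20 and 4.80 FPKM, the tightest relative spread of the 4 genes that start low. The log2(FPKM + 1) difference was 1.95 (SE 0.21, 95% interval 1.51 to 2.39, limma adjusted p = 2.24e-07), more than that of 96.3% of tested entries. Adding 1 FPKM before the logarithm understates changes that start this low.

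Mlkl, the membrane-breaking executor of necroptosis, was at 0.61, 0.81, 0.73, 0.35 and 0.62 FPKM in sham. In IR it was at 6.19, 4.45, 6.14, 8.33 and 3.16 FPKM. Every IR library was above every sham library, but the IR libraries themselves spread widely, and IR replicate 5 was the lowest. The log2 difference was 1.99 (SE 0.23, 95% interval 1.51 to 2.46, limma adjusted p = 3.91e-07).

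Casp4, the lipopolysaccharide sensor of pyroptosis, was at 0.56, 0.72, 0.50, 1.42 and 0.63 FPKM in sham. In IR it was at 9.59, 5.77, 4.87, 5.72 and 5.32 FPKM. Sham replicate 4 and IR replicate 1 stood above the other libraries of their groups. The log2 difference was 2.03 (SE 0.22, 95% interval 1.56 to 2.49, limma adjusted p = 2.29e-07).

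Gsdmd, the pore-forming substrate, was at 2.16, 2.09, 2.18, 2.93 and 2.70 FPKM in sham. The IR libraries were at 16.31, 12.44, 11.81, 11.86 and 10.09 FPKM. IR replicate 1 was again the highest, as for Casp4. The log2 difference was 1.98 (SE 0.21, 95% interval 1.53 to 2.42, limma adjusted p = 1.94e-07), and the IR mean was 5.18 times that of sham. No IR library overlapped sham for any of the 6 genes, a separation that 48.6% of tested entries also showed in the upward direction. Under median-ratio scaling and under quantile normalization the calls of the other 5 genes held.

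**Figure D2:**
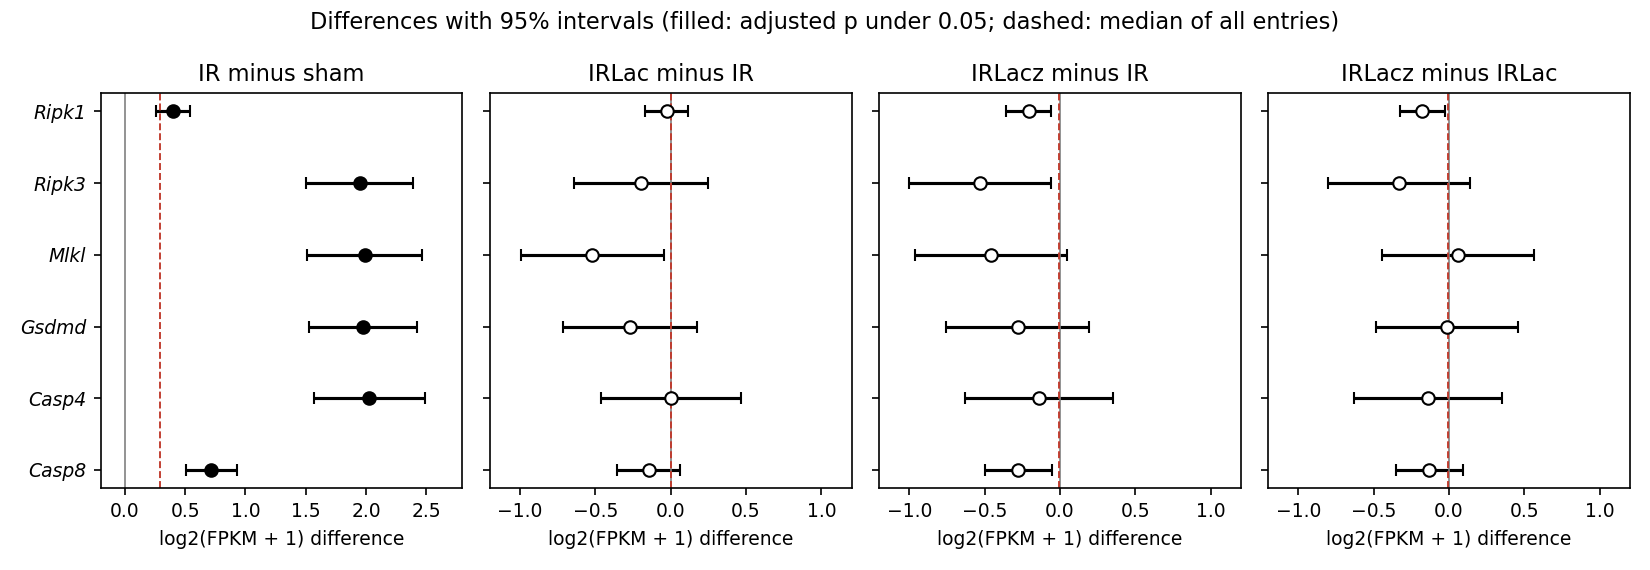
Log2(FPKM + 1) difference (horizontal axis) with its 95% interval for each gene in 4 comparisons, filled where the adjusted p is under 0.05. The dashed line is the median of all tested entries, 0.29 for IR minus sham, and no gene passes in the 3 comparisons between injured groups.

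Because a whole kidney was measured, more cells of a type and more RNA per cell cannot be told apart. Marker counts below stand against 57.0% of all tested entries called higher in IR and 18.6% called lower. All 15 macrophage and monocyte markers were higher in IR. The summed level of these 15 was 126 to 166 FPKM in sham and 1607 to 2243 FPKM in IR, and none was at 0 in all libraries of a group. The 5 pan-leukocyte markers summed to 28.5 to 32.0 FPKM in sham and 144 to 180 FPKM in IR. Of 8 neutrophil markers only S100a8 and S100a9 passed the filter, both were higher in IR, and the list summed to 0.37 to 2.60 FPKM in sham and 7.88 to 12.2 FPKM in IR, with Elane and Ngp at 0 in all IR libraries. All 8 fibroblast and matrix markers were higher, with sums of 83.5 to 115 FPKM in sham and 781 to 961 FPKM in IR. Of the T and NK cell markers 6 of 7 tested were higher, with sums of 3.29 to 7.36 and 9.85 to 25.4 FPKM. The 10 proximal tubule markers, which mark the labelled tissue, all fell, from sums of 4631 to 5092 FPKM to 1664 to 2445 FPKM. The 9 tubular injury markers all rose, from sums of 639 to 742 FPKM to 9834 to 13598 FPKM. The part of these cell shifts in the rise of the 6 genes was not tested.

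Ratios between genes of a library compare RNA levels of the whole tissue, not the activity of the routes, and were not tested. Ripk3 over Ripk1 was 0.0216 to 0.0539 in sham and 0.278 to 0.353 in IR. Casp8 over Ripk3 went the other way, from 21.4 to 56.8 in sham to 4.52 to 6.35 in IR. Casp8 was therefore still several times as abundant as Ripk3 in injured kidneys, but by a far smaller margin than in sham. Casp8 over Cflar, which encodes its catalytically inactive partner cFLIP, was 0.553 to 0.654 in sham and 0.929 to 1.35 in IR. Mlkl over Ripk3 overlapped, at 0.556 to 2.35 in sham and 0.658 to 1.98 in IR. Gsdmd over Casp4 overlapped as well, at 2.06 to 4.36 and 1.70 to 2.43, with means of 3.49 and 2.05. The overlap came from sham replicate 4 (2.06), and the other sham libraries were at 2.90 to 4.36.

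**Figure D3:**
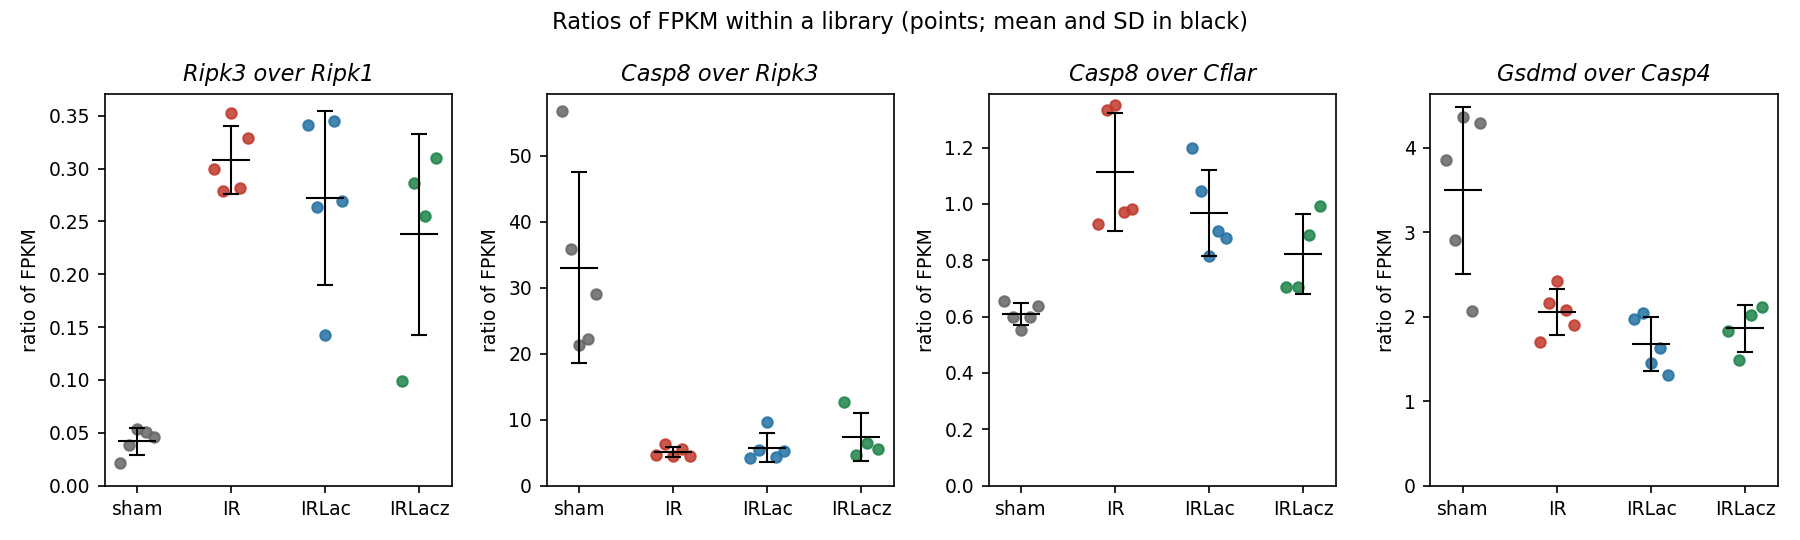
Ratio of the FPKM of a pair of genes in each library (vertical axis, starting at 0) by group, with points for libraries and the mean and SD in black. Ripk3 over Ripk1 and Casp8 over Cflar are higher in all 14 injured libraries than in the 5 sham libraries, Casp8 over Ripk3 is lower, and Gsdmd over Casp4 overlaps between sham and IR.

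The comparison of IRLac with IR asks whether the levels differ when the injury follows that gavage. None of the 6 genes passed, and 0.00736% of tested entries did (1 entry, with 786 entries at an unadjusted p under 0.05). Casp8 was at 24.44, 22.04, 17.53, 20.86 and 22.06 FPKM in IRLac, a log2 difference from IR of -0.15 (95% interval -0.36 to 0.063, limma adjusted p = 0.960). Ripk1 was at 16.90, 15.26, 12.76, 14.07 and 15.79 FPKM, a difference of -0.028 (-0.17 to 0.11). The ranges of both genes overlapped those of IR.

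Ripk3 was at 5.77, 4.02, 1.82, 4.85 and 4.25 FPKM in IRLac, on both sides of the IR range, and differed from IR by -0.20 (95% interval -0.64 to 0.25). Mlkl was at 3.73, 5.15, 1.75, 3.70 and 3.77 FPKM. This was the largest difference of the 6, -0.52 (95% interval -0.99 to -0.044), with an unadjusted limma p of 0.0338 and an adjusted p of 0.818. It ranged from -0.68 to -0.34 with any library left out, and the ranges of the groups overlapped. IR replicate 5 was the lowest library of IR for 4 of 6 genes: Mlkl, Ripk1, Gsdmd and Casp8. Its summed interferon response genes were 285.6 FPKM, and 637 to 1339 FPKM in the other IR libraries. The link between this sum and the levels of those genes was not tested.

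Gsdmd was at 10.15, 11.33, 6.20, 12.39 and 11.56 FPKM in IRLac, a difference from IR of -0.27 (95% interval -0.72 to 0.17). Casp4 was at 5.16, 5.55, 4.26, 7.61 and 8.86 FPKM, a difference of 0.0023 (-0.46 to 0.47). IRLac replicate 3 was the lowest library of its group for 6 of 6 genes. It also had the lowest macrophage sum of the group, 952 FPKM, and the lowest tubular injury sum, 7373 FPKM, with the highest proximal tubule sum, 2798 FPKM. Without it, Ripk3 differed from IR by 0.0035 and Gsdmd by -0.12.

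IRLacz was compared with IR to ask the same of the L. casei Zhang gavage. All 6 genes had lower means in IRLacz and 0 of 6 passed, where 13.3% of tested entries did, 7.92% downward and 5.39% upward (4171 entries at an unadjusted p under 0.05). Ripk1 was at 12.87, 12.63, 13.54 and 13.14 FPKM, below each of the 5 IR libraries. Its difference was -0.21 (95% interval -0.36 to -0.057, limma adjusted p = 0.0602). Ripk3 was at 1.27, 3.62, 3.46 and 4.07 FPKM and did not overlap IR either, with a difference of -0.53 (95% interval -1.002 to -0.060, limma adjusted p = 0.119). Such a separation downward was seen in 6.85% of tested entries.

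The exact two-sided permutation test gave p = 0.00794 for Ripk1 and for Ripk3, unadjusted and the smallest it can give with 5 and 4 libraries. That value follows from ranges that do not overlap, so it restates the separation and is no further support. Casp8 was at 16.10, 16.82, 22.62 and 22.81 FPKM, with replicates 1 and 2 below the IR range and replicates 3 and 4 within it. Its difference was -0.28 (95% interval -0.50 to -0.054, limma adjusted p = 0.0882). With limma's library weights Ripk1 and Casp8 passed (adjusted p = 0.0256 and 0.0357), as they did after median-ratio scaling (0.0465 and 0.0438). Library weights also raised the count of entries called over the whole table, by more than 1.5 times (counts in the closing section). After median-ratio scaling that count stayed within 1.5 times the reported one. Casp8 also passed without IRLacz replicate 3 (adjusted p = 0.0496) or replicate 4 (0.0374), so its call turns on single libraries.

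Mlkl was at 1.93, 3.99, 5.01 and 4.41 FPKM in IRLacz, a difference of -0.46 (95% interval -0.96 to 0.046, limma adjusted p = 0.203). Gsdmd was at 4.96, 10.09, 13.88 and 13.85 FPKM, a difference of -0.28 (-0.75 to 0.19), and Casp4 at 2.71, 6.80, 6.88 and 6.55 FPKM, a difference of -0.14 (-0.63 to 0.35). All 3 ranges overlapped IR. IRLacz replicate 1 was the lowest library of its group for 5 of 6 genes. Its macrophage sum was 651 FPKM against up to 1551 FPKM in the group, and its tubular injury sum 4963 FPKM against up to 16438 FPKM.

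**Figure D4:**
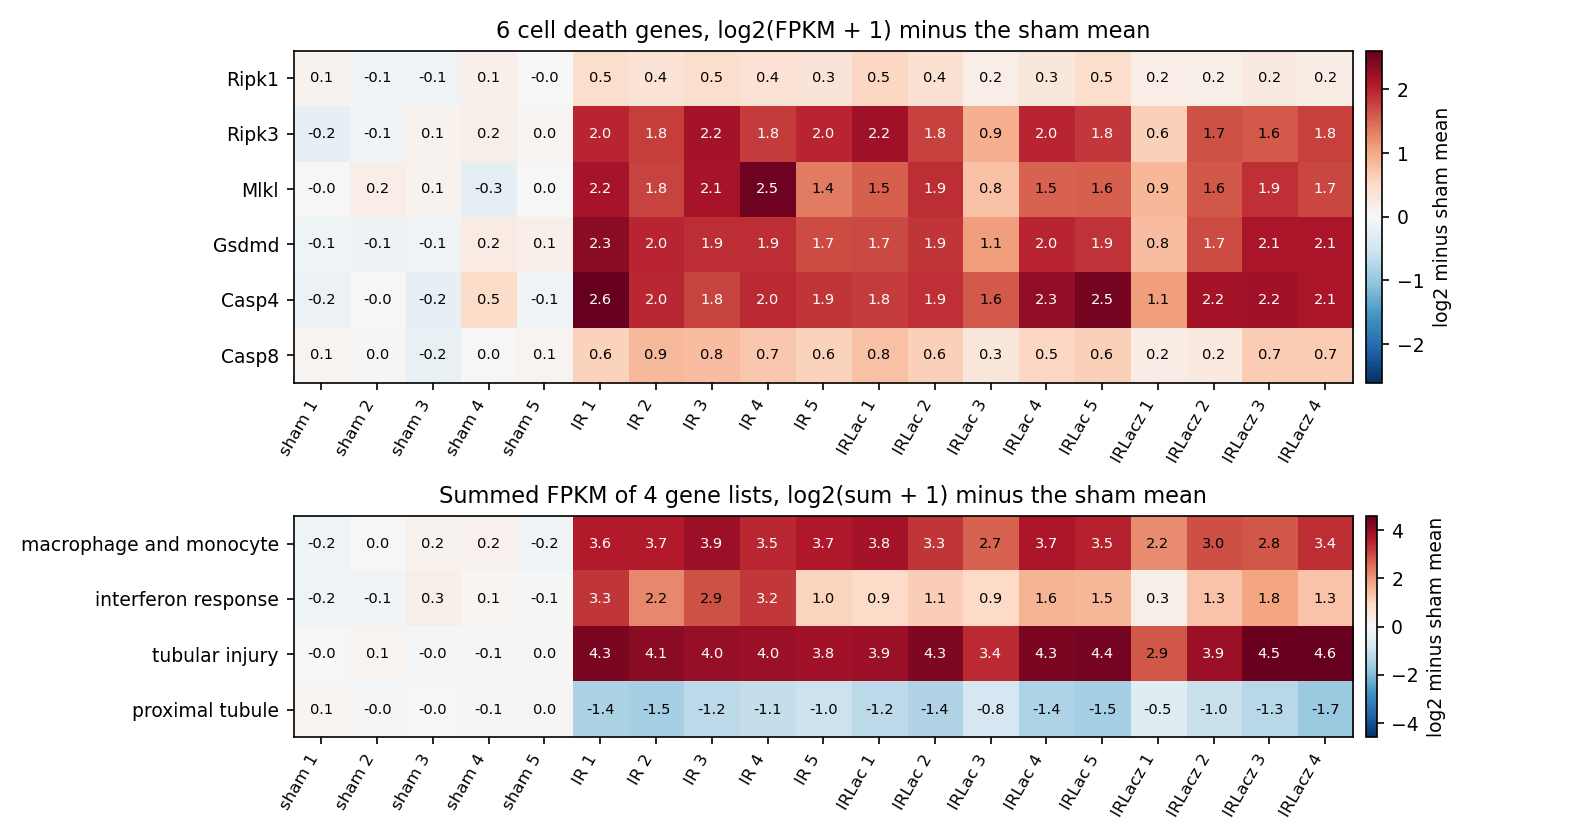
Top, log2(FPKM + 1) of each gene in each library minus its sham mean. Bottom, the same for the summed FPKM of 4 gene lists. IRLac replicate 3 and IRLacz replicate 1 are paler than the rest of their groups for most of the genes and for the macrophage and tubular injury sums, and the interferon sum is low in IR replicate 5.

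Leaving out IRLac replicate 3 and IRLacz replicate 1 together was tried after the data had been seen. Without them, Ripk3 differed between IRLacz and IR by -0.27, Mlkl by -0.23 and Casp8 by -0.19, while Ripk1 stayed at -0.20 (limma adjusted p = 0.0613). Gsdmd and Casp4 then lay slightly above IR, by 0.014 and 0.13. Ripk1 is thus the gene of the 6 whose value moved least. Of the 15 macrophage markers 10 were lower in IRLacz than in IR with all libraries and 9 without these 2. Of the 8 fibroblast markers 6 and 5 were lower. With all libraries 7.92% of tested entries were lower, and the share without these 2 libraries was not counted, here or below. Collecting duct (4 of 9) and podocyte (2 of 5) markers were higher and none lower with all libraries, against 5.39% of entries higher. Neutrophil sums were 7.27 to 28.4 FPKM in IRLacz and 7.88 to 12.2 FPKM in IR. Tubular injury sums of IRLacz replicates 1 to 4 were 4963, 10356, 15794 and 16438 FPKM, against 9834 to 13598 FPKM in IR. Without IRLacz replicate 1 the macrophage sums of IRLacz were 1054 to 1551 FPKM, all below those of IR. The part of these cell markers in the values of the 6 genes was not tested.

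The gavaged groups were also set against each other. None of the 6 genes passed, and 0.0221% of tested entries did (3 entries, with 2171 at an unadjusted p under 0.05). Ripk1 differed most clearly, by -0.18 in IRLacz relative to IRLac (95% interval -0.33 to -0.029, limma adjusted p = 0.237). Ripk3 differed by -0.33 (-0.80 to 0.14) and Casp8 by -0.13 (-0.35 to 0.093). Mlkl (0.062), Gsdmd (-0.010) and Casp4 (-0.14) had intervals reaching at least 0.35 on each side of 0. The ranges of all 6 genes overlapped between the 2 gavaged groups.

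Both gavaged groups stayed above sham, and these comparisons share the sham libraries with that of IR. In IRLac the log2 differences from sham were 0.57 for Casp8, 0.37 for Ripk1, 1.75 for Ripk3, 1.47 for Mlkl, 2.03 for Casp4 and 1.71 for Gsdmd. All 6 passed (limma adjusted p from 2.75e-07 to 7.22e-05), where 74.8% of tested entries did, 58.0% upward and 16.8% downward. In IRLacz the differences were 0.44 for Casp8, 0.19 for Ripk1, 1.42 for Ripk3, 1.53 for Mlkl, 1.89 for Casp4 and 1.69 for Gsdmd, and all 6 passed (adjusted p from 2.43e-06 to 0.0218), where 70.3% of tested entries did, 56.9% upward and 13.5% downward. No library of either gavaged group overlapped sham for any of the 6, as was so upward for 46.6% of tested entries in IRLac and 45.1% in IRLacz. Ripk1 had the smallest differences in both groups. Under median-ratio scaling and quantile normalization its difference in IRLac was 0.037 and 0.043, and the call ended. Its difference in IRLacz was less than the median of all entries, 0.29, and turned to -0.13 under both scalings. It also failed without IRLacz replicate 3 (adjusted p = 0.0597), sham replicate 2 (0.0584) or sham replicate 3 (0.0514). The Casp8 difference in IRLacz fell to 0.11 (adjusted p = 0.313) and 0.17 (adjusted p = 0.143) under them.

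Upstream of the 6 genes, receptors and ligands that feed necroptosis and death receptor signalling were read from a list of 14 genes. In IR, 12 of 13 tested genes were higher and 1 lower, where 57.0% of all tested entries were higher and 18.6% lower. The median log2 difference was 1.06 against 0.29 for all entries. Tnfrsf1a, the TNF receptor that recruits RIPK1, rose from 32.5 ± 3.05 to 83.9 ± 4.05 FPKM (limma adjusted p = 9.41e-10). Its ligand Tnf rose from 0.172 ± 0.118 to 1.14 ± 0.300 FPKM. Tnf was below 1 FPKM in all sham libraries and passed the filter on low values through the injured groups. Zbp1, a nucleic acid sensor that engages RIPK3 directly, rose from 2.10 ± 0.888 to 19.1 ± 9.45 FPKM and was the 1 gene of the list called between IRLacz and IR, at 6.65 ± 2.70 FPKM (log2 difference -1.29, limma adjusted p = 0.0268). Between these groups 7.92% of all tested entries were called lower. Without IRLac replicate 3 and IRLacz replicate 1 no gene of the list was called there. The interferon gamma receptor genes Ifngr1 and Ifngr2 rose from 16.4 to 53.2 and from 9.45 to 37.8 FPKM. Tnfsf10, the death ligand TRAIL, fell from 11.3 ± 1.80 to 7.62 ± 2.06 FPKM (adjusted p = 0.00576).

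Adaptors, ubiquitin enzymes and kinases that act on the RIPK1 complex made a list of 22. In IR 19 were higher and 1 lower, where 57.0% of all tested entries were higher and 18.6% lower. The median was 0.38, near that of all entries, and after median-ratio scaling 9 were higher and 4 lower. Birc3 and Birc2, ubiquitin ligases of RIPK1, rose from 3.21 ± 0.300 to 16.8 ± 1.29 FPKM and from 8.16 ± 1.14 to 20.9 ± 2.56 FPKM. Tnfaip3, which encodes the ubiquitin editor A20, rose from 1.61 ± 0.158 to 7.62 ± 0.626 FPKM. Fadd, the adaptor that binds caspase-8, was at 7.04 ± 0.231 and 8.29 ± 0.650 FPKM (limma adjusted p = 0.00244), a direction that turned to -0.099 under median-ratio scaling and -0.20 under quantile normalization. Cflar was at 23.1 ± 0.765 and 21.6 ± 2.42 FPKM (adjusted p = 0.224), and both scalings called it lower. Tradd, an adaptor of the TNF receptor, was at 21.6 ± 1.73 FPKM in IR and 17.5 ± 1.65 in IRLacz. It was the 1 gene of the 22 called between those groups (-0.29, limma adjusted p = 0.0377), where 7.92% of all tested entries were lower. That call was lost after rescaling to TPM (adjusted p = 0.0545) and without IRLac replicate 3 and IRLacz replicate 1 (-0.23, adjusted p = 0.0907). Without those 2 libraries Birc3 was called higher in IRLacz than in IR instead (0.56, adjusted p = 0.0128), against 0.24 with all libraries (adjusted p = 0.496).

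Of the other caspases, 6 of 7 tested were higher in IR and none lower (3 and 1 under quantile normalization), with a median of 0.55 against 0.29 for all entries, of which 57.0% were higher and 18.6% lower. Casp1, the inflammasome caspase next to Casp4 in the genome, rose from 0.476 ± 0.159 to 2.71 ± 0.627 FPKM, and Casp12, on its other side, from 0.502 ± 0.222 to 3.08 ± 0.641 FPKM. In the inflammasome and gasdermin list, 7 of 12 tested genes were higher and 2 lower (7 and 4 under median-ratio scaling), shares close to those 57.0% and 18.6%, with a median of 0.73. Pycard, the inflammasome adaptor ASC, rose from 4.22 ± 0.448 to 12.5 ± 1.16 FPKM and Nlrp3, a sensor, from 0.132 ± 0.0259 to 1.12 ± 0.142 FPKM. Casp1, Casp12 and Nlrp3 were below 1 FPKM in all sham libraries and passed the filter on low values through the injured groups. Gsdme, another gasdermin, was at 4.01 ± 0.440 and 4.00 ± 0.360 FPKM, and Ninj1, which ruptures the membrane after the pores form, at 159 ± 8.58 and 152 ± 8.06 FPKM. Neither passed, but median-ratio scaling called both lower, Gsdme by -0.28 and Ninj1 by -0.41. Il1b, a cargo of gasdermin D pores, rose from 0.786 ± 0.410 to 3.72 ± 0.481 FPKM and was at 2.20 ± 0.349 FPKM in IRLacz (-0.56 relative to IR, adjusted p = 0.0415). The IRLacz call of Il1b was lost after rescaling to TPM (adjusted p = 0.0642) and without IRLac replicate 3 and IRLacz replicate 1 (adjusted p = 0.0795). Il18 was at 1.31 ± 0.579 and 1.95 ± 0.405 FPKM (adjusted p = 0.123), a difference that changed sign under quantile normalization.

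The BCL2 family and mitochondrial list had 16 of 22 tested genes higher in IR and 4 lower (11 and 6 under median-ratio scaling), against 57.0% and 18.6% of all entries, with a median of 0.47 against 0.29. Bid, which caspase-8 cuts to engage mitochondria, fell from 37.6 ± 3.11 to 27.8 ± 3.09 FPKM (limma adjusted p = 0.000146), opposite in direction to Casp8. Pmaip1 (Noxa), Bak1 and Bbc3 (Puma), all pro-apoptotic, rose from 2.88 to 16.0, from 5.92 to 23.7 and from 3.54 to 13.0 FPKM. Between IRLacz and IR 3 genes of the list were called, all lower: Bcl2l1 (-0.46), Bax (-0.38) and Mcl1 (-0.34). Of all tested entries 7.92% were lower there. Without IRLac replicate 3 and IRLacz replicate 1, 1 gene of the list was called. Mcl1 lies outside the naming rule and was named after its values were seen. The ESCRT-III genes, whose proteins remove MLKL and gasdermin damage from the membrane, had 10 of 14 higher and none lower, with a median of 0.34, and 4 higher and 5 lower under median-ratio scaling. Chmp4b, which polymerises at the damaged membrane, rose from 90.8 ± 6.05 to 156 ± 13.6 FPKM.

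Of 20 interferon response genes, a class to which Zbp1 and Mlkl are also known to belong, 19 were higher in IR, with a median of 1.97. In that comparison 57.0% of all tested entries were higher. Irf7, a transcription factor of the response, was at 11.1 ± 4.00 FPKM in sham and 143 ± 93.5 FPKM in IR, and Bst2, a membrane tether of viruses, at 29.7 ± 3.34 and 263 ± 136 FPKM. IR replicate 5 stood apart here: its Irf7 level was 13.8 FPKM, inside the sham range of 8.37 to 17.98, and the other 4 IR libraries were at 77.6 to 228 FPKM. The list summed to 286 FPKM in that library, to 637 to 1339 FPKM in the other IR libraries and to 122 to 167 FPKM in sham. In IRLacz 11 were lower than in IR, with a median of -0.90, where 7.92% of all tested entries were lower. Without IRLac replicate 3 and IRLacz replicate 1, 2 were lower. In IRLac the median relative to IR was -1.02, with none called. Leaving out IR replicate 5, tried after the data had been seen, gave 14 genes lower in IRLac than in IR (median -1.28) and 16 lower in IRLacz (median -1.15), with 116 and 2150 entries called over the whole table. That library was the lowest of IR on this list, so more list calls follow from the choice and are no further support. With all libraries, none of the 7 lists had a gene called between IRLac and IR.

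**Figure D5:**
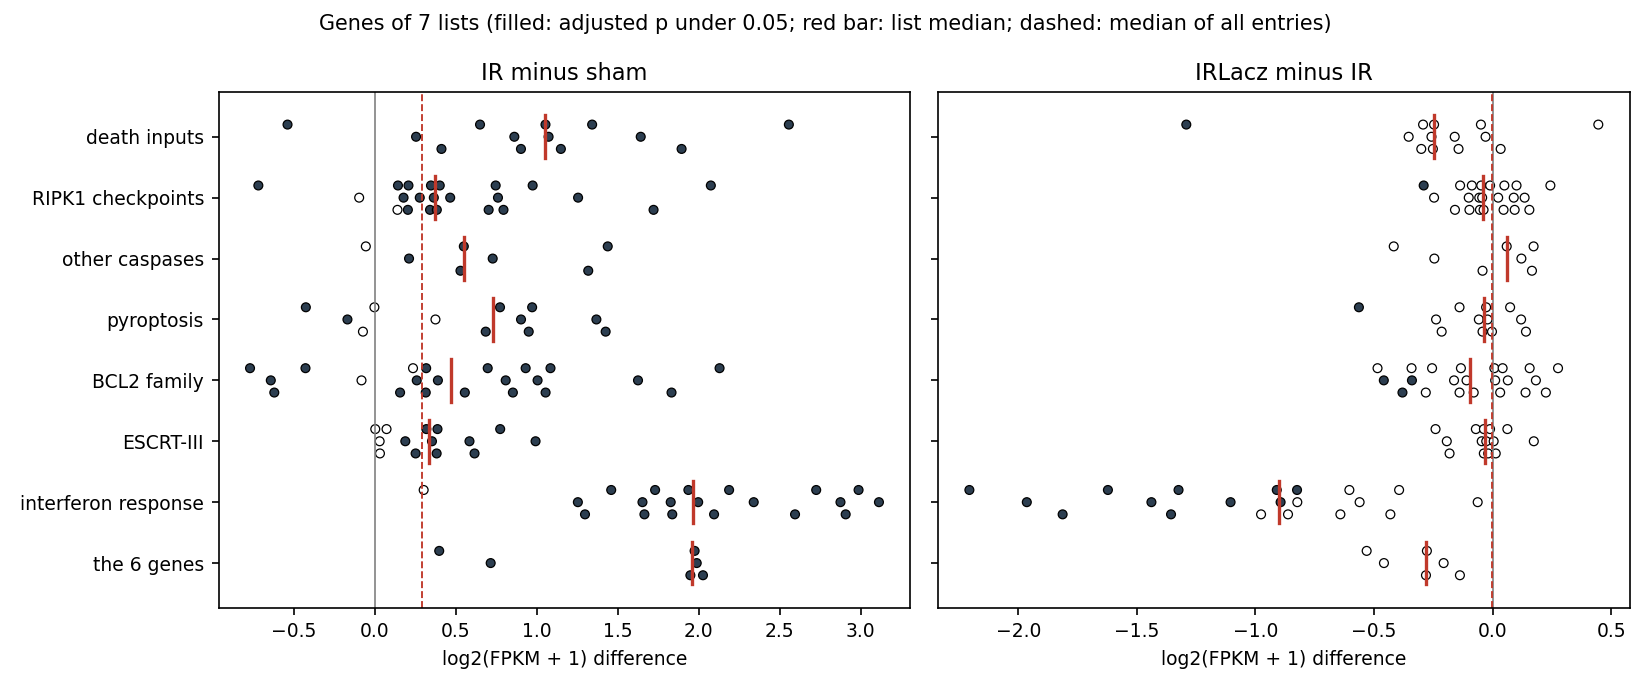
Log2(FPKM + 1) difference (horizontal axis) of each tested gene of 7 lists and of the 6 genes, filled where the adjusted p is under 0.05, for IR minus sham and IRLacz minus IR. Red bars are list medians and the dashed line the median of all entries. The interferon list has the highest median of the 7 lists in IR minus sham (1.97) and the lowest in IRLacz minus IR (-0.90).

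The genes whose pattern over the 19 libraries was nearest to each of the 6 were found among 13140 tested named genes. Likeness was the root mean square difference of log2(FPKM + 1) after subtracting each gene's sham mean, so a small value means a close course. Nearest to Ripk1 were Rrn3 (0.0600), Api5 (0.0657) and Aebp2 (0.0696), and nearest to Casp8 were Hnrnpf (0.0805), Serbp1 (0.0892) and Zfp207 (0.0924). Nearest to Ripk3 were Mapk11 (0.154), Ikbke (0.161) and Ppp1r18 (0.168). For Mlkl they were Serpinb9 (0.179), Ddx58 (0.209), which encodes the RNA sensor RIG-I, and Fbxw17 (0.230). For Gsdmd they were B4galt2 (0.171), Shfl (0.171) and Smox (0.176), and for Casp4 Stx11 (0.186), Cxcl16 (0.211) and Tmsb4x (0.219). Among the 6 themselves, Ripk1 and Casp8 were nearest to each other (0.254), Ripk3 and Gsdmd to each other (0.239), and Mlkl (0.295) and Casp4 (0.264) both to Gsdmd. These distances share the libraries and their differences in injury, and were not tested.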

How the data were processed

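The authors deposited a table of FPKM values (fragments scaled by gene length and library total), 19 libraries by 19287 entries, with no counts, so depth and counting error are unknown. Per the submitters' processing notes, HISAT, StringTie 1.0.4 and build mm9 were used. What each did, the annotation and strand handling are not stated there. RefSeq symbols (GRCm38.p6) matched 18238 entries by gene ID. After adding 1 and taking log2, values were fitted by limma 3.58.1 (R 4.3.3, mean-variance trend, 4 groups in 1 model, 15 residual degrees of freedom), for the 13594 entries that reached 1 FPKM in 4 or more libraries. P-values were adjusted by Benjamini-Hochberg within each of 6 comparisons (36 tests of the 6 genes), threshold 0.05. The steps were tested on simulated data in which few entries changed, equally upward and downward. That setting differs from the broad shift between IR and sham, so it does not test the choice of scaling. Libraries of a group correlated at 0.960 to 0.993. Alternatives changed the pseudocount, filter, scaling, weights, samples, pairing and test.

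The 6 genes and all lists were chosen with earlier results of these data known. Beside the 6, the text names a fixed set of pathway genes, the 3 list genes that changed most in IR and the 2 with the smallest adjusted p in IRLacz relative to IR, and the 3 nearest patterns. Group means are ± SD. Python 3.11.15 was used for summaries. Some genes of the fixed set are not reported here.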

Additional observations from a re-analysis of the deposited data

Results flagged for a closer look

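In 24 sets of values (6 genes in 4 groups), the highest or lowest library was compared with the rest of its group by Dixon's gap at the 95% level, which chance passes in about 1 of 20 sets. All 3 libraries that passed were for Casp4. Sham replicate 4 was at 1.42 FPKM, where the other sham libraries were at 0.50 to 0.72 FPKM. IR replicate 1 was at 9.59 FPKM, where the other IR libraries were at 4.87 to 5.77 FPKM. IRLacz replicate 1 was at 2.71 FPKM, where the other IRLacz libraries were at 6.55 to 6.88 FPKM. The Casp4 difference between IR and sham was 2.15 without sham replicate 4 and 1.88 without IR replicate 1. Its difference between IRLacz and sham was 2.16 without IRLacz replicate 1.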

How the results depend on the processing

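Of 714 recomputed differences of the 6 genes, 665 kept their direction and their side of the threshold, 9 fell short of it, 8 passed it and 32 changed sign. No depth is known, so what depth limits cannot be stated.

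For the 3 comparisons with sham, 6 genes passed in the reported analysis and 3 with a mean of at least 5 FPKM required, which leaves 3 of the 6 in the fit. Ripk1 in IRLacz relative to sham was -0.13 under median-ratio scaling and -0.13 under quantile normalization, and 0.16 to 0.23 with a library left out, of which 3 ended the call. The 6 other losses, under the same scalings, stand beside their results. Their cause was not tested.

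Between IRLacz and IR the count of genes passing was 2 under median-ratio scaling, 2 with library weights and 0 to 1 with a library left out. Entries called there numbered 1809 in the reported analysis, 885 with only the groups compared, 2978 with library weights and 606 (without IR replicate 3) to 2197 with a library left out. The others that moved the count past 1.5 times were those without IR replicate 2 (888), IR replicate 1 (1089), IRLacz replicate 2 (774) and IRLacz replicate 1 (1127). Between IRLac and IR, 1 entry was called, 0 with a mean of at least 5 FPKM, with library weights or with the replicate block, and 0 to 116 (without IR replicate 5) with a library left out. Between IRLacz and IRLac, 3 were called, and 1 with pseudocount 0.1, 5 with no filter, 0 with a mean of at least 5 FPKM, 10 with median-ratio scaling, 5 with quantile normalization, 1 with only the groups compared, 167 with library weights, 1 with the replicate block and 1 to 490 (without IRLac replicate 3) with a library left out.

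Sign changes were otherwise among differences that passed in no setting. Casp4 in IRLac relative to IR was -0.012 under median-ratio scaling and -0.12 to 0.15 with a library left out, where Ripk1 ran from -0.071 to 0.024 and Ripk3 from -0.31 to 0.0035. Without IRLac replicate 3 and IRLacz replicate 1 these were 0.024 for Ripk1 and 0.0035 for Ripk3. In IRLacz relative to IR, Casp4 was 0.074 with library weights, 0.13 without those libraries and -0.23 to 0.13 with a library left out, and Gsdmd 0.014 without those libraries and -0.43 to 0.014 with a library left out. In IRLacz relative to IRLac, Gsdmd was 0.0052 with quantile normalization, 0.050 with library weights, 0.13 without those libraries and -0.17 to 0.28 with a library left out. There Casp4 was 0.0048 with library weights, 0.017 without those libraries and -0.25 to 0.13 with a library left out, and Mlkl -0.11 to 0.29.

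Replicate numbers share no stated animal or batch. Over 27 same-number pairs of libraries, deviations from the group means correlated at -0.394 to 0.23, with 6 over 0.1, so the numbers were not taken as pairs. With the replicate block, 6, 0, 0, 0, 6 and 6 of the genes passed, as without it, and entries called were 10108 for IR relative to sham and 1574 for IRLacz relative to IR.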
